A study of Mus musculus with 20 samples.

Results

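Interleukin 13 (IL-13) was compared with its vehicle, phosphate-buffered saline (PBS), in whole mouse ear skin. The 10 libraries labelled IL-13 or PBS, 5 of each, were taken from a bulk RNA-seq series of 20 libraries, and all genes of the deposited table were described. In the IL-13 group, recombinant IL-13 from R&D Systems (0.1 µg/µl in PBS, 10 µl) was injected intradermally into the right ear pinna. The control mice were given PBS in the same ear, and the remaining 10 libraries came from ears given IL-4 or IL-31. The labels state no strain, age, sex, PBS volume or harvest time, and do not say that each library is a separate animal, so the p-values reflect only how these libraries vary, which may be technical.

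IL-13 is a cytokine of type 2 immunity, made mainly by T helper 2 cells and group 2 innate lymphoid cells. It binds Il13ra1, which pairs with Il4ra to form a receptor shared with IL-4, and the receptor-bound Janus kinases then activate the transcription factor STAT6. Il13ra2 binds IL-13 with high affinity and acts largely as a decoy. In skin, IL-13 is best known for its part in atopic dermatitis, where it acts on keratinocytes, fibroblasts, sensory nerves and immune cells.

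The pinna is a sheet of epidermis, dermis, cartilage, fat and striated muscle, and all of these were present in the RNA. Over the 10 libraries Krt14, the keratin of basal epidermis, lay at 12.88 to 14.18 log2 CPM (the log2 of read counts relative to library size), Col1a1 of dermal fibroblasts at 9.52 to 11.46, Acan of cartilage at 6.09 to 7.52, Adipoq of fat at 1.92 to 5.70 and Acta1 of skeletal muscle at 6.61 to 10.81. Effective library sizes were 13.3 ± 0.380 M reads (M, mega) in IL-13 and 11.3 ± 1.39 M in PBS (mean ± SD, n = 5 each). At this depth 3 reads correspond to 0.218 to 0.329 CPM, and differences below that level were not detectable. PBS libraries 1, 2 and 3 stood apart from PBS libraries 4 and 5 in the genes of the cornified epidermis. Their mean centred log2 levels over 49 such genes were -0.85, -1.38 and -2.0, against 0.20 and 0.68 in PBS 4 and 5 and -0.24 to 1.6 in IL-13. Changes are therefore described with all 5 PBS libraries and by whether they held without PBS 1, 2 and 3, and for some genes only the first value is printed. A change is said to hold where it passed in the same direction in both fits, and losing a call can also come from having 2 PBS libraries in place of 5. Each fit shares 1 spread per gene over all 4 groups. With 2 PBS libraries that spread rests mostly on the cytokine groups, and the SE and p-value assume that PBS varies like them.

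The comparison of IL-13 with PBS asks which skin transcripts differ after exposure to the cytokine. With all libraries, 3250 of 16461 tested genes passed (19.7%), with 1637 higher in IL-13 (9.94%) and 1613 lower (9.80%) at a limma adjusted p under 0.05. The direction of these calls was uneven in size: 281 of the rises and 673 of the falls were at least 2-fold. Without PBS 1, 2 and 3 there were 385 calls (2.34%), of which 86 were higher (0.522%) and 299 lower (1.82%). Both fits called 315 genes (1.91%), 48 higher (0.292%) and 267 lower (1.62%), so 2.93% of the rises and 16.6% of the falls held. The split between rises and falls moved with the scaling and the libraries fitted. It was 50.4% higher with all libraries, 61.4% after quantile normalization and 31% when only the 10 IL-13 and PBS libraries were fitted.

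The sizes of the changes also differed between rises and falls. Among the 1637 rises the median log2 fold change was 0.51 with all libraries and 0.25 without PBS 1, 2 and 3, 892 of them shrank to under 0.5 times their size, and 14 changed sign. Among the 1613 falls the median was -0.87 and then -0.82, 98 shrank to under 0.5 times and 0 changed sign. Over all tested genes the median was -0.03 and 0.00. Part of the contrast between rises and falls was built in by the libraries left out. PBS 1, 2 and 3 were the lowest PBS libraries in the cornified-envelope genes, of which 36 of 49 rose. How far this accounts for the smaller rises was not tested. The number of genes that held varied widely. It was 0 with library weights, 33 without IL-13 5, 38 without IL-13 3, 200 without IL-13 4 and 637 without IL-13 2. Leaving out PBS 4 or PBS 5 as well leaves 1 PBS library in the smaller fit, so no count is given there. With only the 10 libraries the number was 3. The 3 genes were all falls, among them Gys1, the muscle glycogen synthase, and Zfp106, an RNA-binding zinc finger protein needed by muscle and motor neurons. Both were named after their values were seen.

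**Figure D1:**
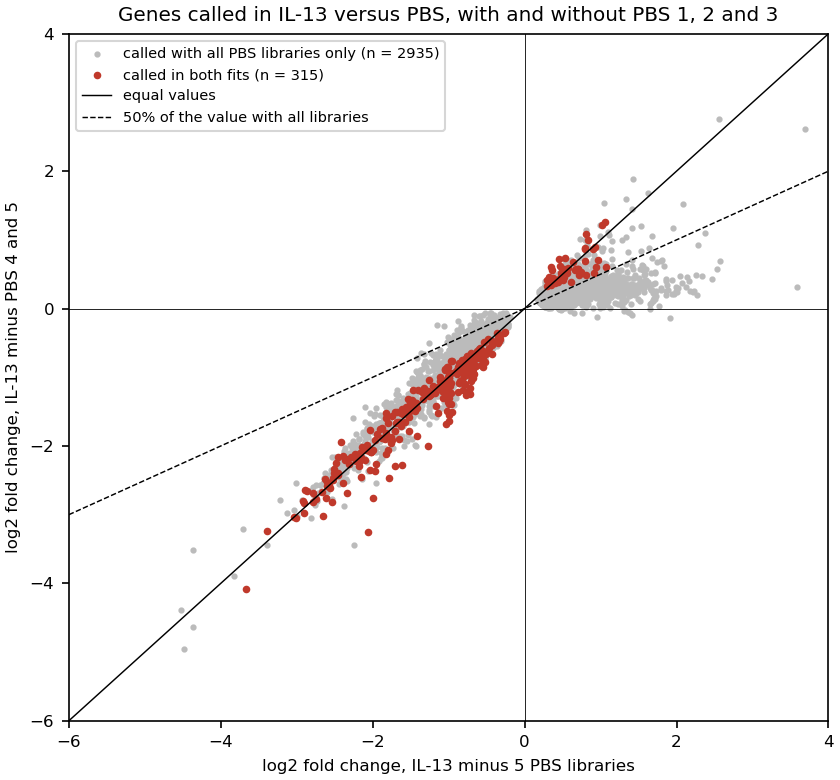
Log2 fold change of each of the 3250 called genes, IL-13 minus PBS, with all 5 PBS libraries (horizontal axis) and with PBS 4 and 5 only (vertical axis). The 315 genes called in both fits are red and the others grey, the solid line marks equal values and the dashed line 50% of the first value. The falls lie along the line of equal change, where their median was -0.87 and -0.82, and many rises lie below it, with medians of 0.51 and 0.25.

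The sequences that follow are stretches of 250 bases directly upstream of the RefSeq start of genes that held, printed because both directions of change can be set beside promoter motifs. They are shown 5′ to 3′ on the gene's strand, from RefSeq, build GRCm38.p6. RefSeq starts can differ from those of the GENCODE genes tested: the Kbtbd12 and Htatip2 windows lie inside the GENCODE gene, those of Lpar2 and Arl4a reach into it, and that of Pgam2 lies outside. Htatip2 and Arl4a each have another RefSeq window, which lacks TGANTCA, and a gene was counted as carrying a motif if any of its windows held it. Promoter entries matched 11821 of the 16446 distinct symbols tested, among them 34 of the 48 rises and 193 of the 267 falls. Pgam2, the muscle phosphoglycerate mutase of glycolysis (chr11:5803797-5804046, minus strand), and Kbtbd12, a kelch-repeat protein (chr6:88627430-88627679, minus strand), fell and carry a MEF2 box, in capitals, the motif of the myocyte enhancer factor 2 family that drives muscle genes.
Pgam2: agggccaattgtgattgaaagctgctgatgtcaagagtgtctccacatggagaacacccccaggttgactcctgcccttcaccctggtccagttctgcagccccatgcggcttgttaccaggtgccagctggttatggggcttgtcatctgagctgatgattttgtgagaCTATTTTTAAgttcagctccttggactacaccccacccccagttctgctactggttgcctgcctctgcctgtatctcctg
Kbtbd12: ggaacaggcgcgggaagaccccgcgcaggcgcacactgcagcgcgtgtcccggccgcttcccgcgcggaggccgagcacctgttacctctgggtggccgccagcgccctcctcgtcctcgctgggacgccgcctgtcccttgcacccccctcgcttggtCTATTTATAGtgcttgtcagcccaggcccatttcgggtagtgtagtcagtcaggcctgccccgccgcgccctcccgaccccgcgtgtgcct

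Htatip2, a short-chain oxidoreductase (chr7:49759262-49759511, plus strand), Lpar2, a receptor for lysophosphatidic acid (chr8:69822315-69822564, plus strand), and Arl4a, a small GTPase of the ARF family (chr12:40037988-40038237, minus strand), rose and carry TGANTCA, in capitals. It is looser than the core motif of the AP-1 (Fos and Jun) factors, which has C or G as its central base. The Arl4a match has A there, and the counts of TGANTCA take any central base.
Htatip2: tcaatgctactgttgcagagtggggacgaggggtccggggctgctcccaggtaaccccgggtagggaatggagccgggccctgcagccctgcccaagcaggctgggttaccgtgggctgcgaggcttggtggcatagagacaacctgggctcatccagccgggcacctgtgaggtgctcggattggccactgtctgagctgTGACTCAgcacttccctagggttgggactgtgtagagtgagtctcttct
Lpar2: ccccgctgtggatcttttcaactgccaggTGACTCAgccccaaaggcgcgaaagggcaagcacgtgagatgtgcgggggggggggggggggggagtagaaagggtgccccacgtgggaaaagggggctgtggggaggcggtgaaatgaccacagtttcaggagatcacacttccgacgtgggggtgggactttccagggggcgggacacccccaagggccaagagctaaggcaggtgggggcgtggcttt
Arl4a: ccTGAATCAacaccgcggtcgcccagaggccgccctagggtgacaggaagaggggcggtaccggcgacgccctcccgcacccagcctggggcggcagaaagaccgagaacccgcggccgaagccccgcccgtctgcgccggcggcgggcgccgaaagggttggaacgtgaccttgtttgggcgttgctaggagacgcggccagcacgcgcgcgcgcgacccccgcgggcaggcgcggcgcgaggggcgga

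Both strands of every 250-base window were searched, and matches were counted whether or not they overlapped another motif. TGANTCA was present upstream of 7 of the 34 rises (20.6%), 12 of the 193 falls (6.22%) and 6.12% of all tested genes with an entry. The MEF2 box was present upstream of 11 of the 193 falls (5.70%), 0 of the 34 rises and 2.27% of all. TTCNNNNGAA, the spacing preferred by STAT6, was present upstream of 1 of the 34 rises (2.94%), 14 of the 193 falls (7.25%) and 5.74% of all. CANNTG, the E-box of the myogenic factors among many others, was in 67.6%, 68.9% and 62.9%. These are counts of letters in short windows and were not tested.

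Foxq1, a forkhead transcription factor of epithelia, had, in the fit without PBS 1, 2 and 3, the largest rise of the genes that held and did not overlap between the groups, and the other rises that held were mostly under 2-fold. Foxq1 (chromosome 13 from 31556134 to 31560976, GRCm38, protein-coding) stood at 6.02, 5.66, 5.67, 5.77 and 5.15 log2 CPM in PBS 1 to 5 and at 6.48, 6.55, 6.56, 6.98 and 6.81 in IL-13 1 to 5. Every IL-13 library was above every PBS library, and PBS 5 was the lowest. Its log2 fold change was 1.02 ± 0.14 (SE, adjusted p = 0.000938) and 1.22 ± 0.17 (adjusted p = 0.0107) without PBS 1, 2 and 3. Foxq1 and Cyp2j8, a cytochrome P450 whose groups overlapped, were the 2 rises of at least 2-fold in both fits.

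Aldoc, an aldolase of glycolysis, lay at 3.99, 3.31, 4.31, 4.26 and 3.58 in PBS and 4.95, 4.88, 4.74, 4.67 and 4.86 in IL-13, a log2 difference of 0.93 ± 0.15 (adjusted p = 0.00142) that was 0.90 ± 0.15 (adjusted p = 0.0207) without PBS 1, 2 and 3. Aspg, an asparaginase, differed by 0.79 ± 0.17 and then 0.88 ± 0.20. Fdx1, the ferredoxin that passes electrons to mitochondrial steroid hydroxylases, differed by 0.47 ± 0.13 and 0.62 ± 0.16. None of these 3 genes overlapped between the groups. Others that held were Me1 (malic enzyme), Srd5a1 (steroid 5-alpha reductase), Hsd17b2 (a dehydrogenase that inactivates sex steroids) and Ugt1a1 (a glucuronosyltransferase). The Hsd17b2 rise of 0.81 ± 0.27 (adjusted p = 0.0408) lost its call in 8 of the 10 fits that left out a single library, all but those without PBS 1 or PBS 3. The 48 rises also held retinol dehydrogenases (Rdh1, Rdh16f1) and the retinoic acid receptor Rarg, which is the main such receptor of epidermis. Of the genes that follow Fdx1 here, all but Hsd17b2 were chosen after their values were seen.

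Kcnk7, a member of the two-pore potassium channel family, stood at 3.61, 3.24, 3.44, 4.10 and 3.60 in PBS and 4.45, 4.46, 4.78, 4.44 and 4.66 in IL-13, a log2 difference of 0.96 ± 0.15 and, without PBS 1, 2 and 3, 0.71 ± 0.18. Lrrc8e, a subunit of volume-regulated anion channels, differed by 0.79 ± 0.15 and 0.69 ± 0.17. Il20rb, the receptor chain shared by IL-19, IL-20 and IL-24, stood at 7.90, 7.48, 7.44, 8.08 and 7.47 in PBS and 8.16, 8.19, 8.40, 8.46 and 8.47 in IL-13, a log2 difference of 0.66 ± 0.11 (adjusted p = 0.00168) and 0.56 ± 0.13 (adjusted p = 0.0386). In Kcnk7, Lrrc8e and Il20rb all 5 IL-13 libraries lay above all 5 PBS libraries, with the smallest gap in Il20rb, between PBS 4 and IL-13 1. Wnt7b, a Wnt ligand made by epidermis, differed by 1.07 ± 0.19 and 0.61 ± 0.15, and Lpar2 by 0.50 ± 0.10 and 0.53 ± 0.11. The remaining rises named by the rule were Samd10, Sh2d4a, Cbx2 (a chromatin reader of Polycomb complexes), Arl4a, Crybg2 and Htatip2, with log2 differences of 0.51 to 0.94 with all libraries and 0.52 to 0.60 without PBS 1, 2 and 3.

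Among all 48 rises that held, 29 did not overlap between the groups and 30 also passed when only the 10 IL-13 and PBS libraries were fitted. Over all tested genes, 1238 did not overlap (7.52%), 414 with IL-13 higher (2.52%) and 824 with IL-13 lower (5.01%). For Tmem254b, which held, near-identical copies make its value uncertain.

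**Figure D2:**
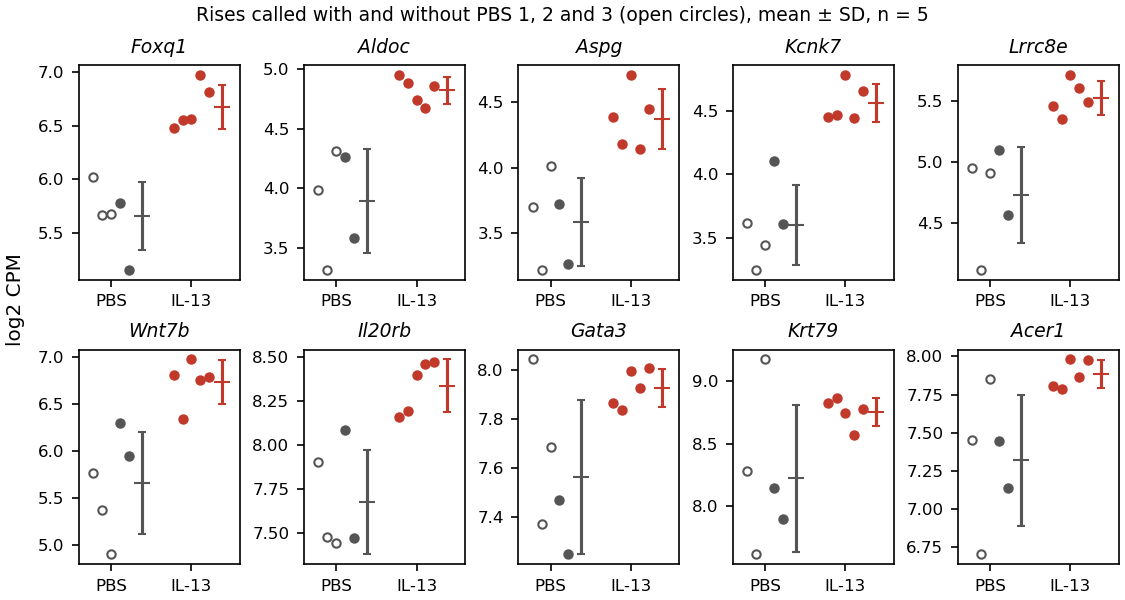
Log2 CPM in each PBS and IL-13 library for 10 rises that held, with mean ± SD (n = 5) beside the points and PBS 1, 2 and 3 as open circles. In Foxq1, PBS lies at 5.15 to 6.02 and IL-13 at 6.48 to 6.98, while in Krt79 and Gata3 the PBS libraries overlap the IL-13 libraries.

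The 15 largest falls that held without overlap were mostly of genes known from skeletal muscle, and were of like size with and without PBS 1, 2 and 3. They were chosen for a call in both fits and no overlap, which favours like sizes, so these traits are not separate results. Of 52 genes of muscle contraction and energy, 47 fell, 15 held and 5 did not pass. The median log2 fold change of the list was -2.43 with all libraries and -2.39 without PBS 1, 2 and 3. The 52 genes took 1.42 to 3.99% of all CPM in PBS and 0.25 to 0.831% in IL-13. The groups did not overlap in 41 of the 52, against 5.01% of all tested genes without overlap and lower in IL-13. In the fit of only the 10 libraries 45 of the 52 fell, against 783 of all 16461 tested genes. Without PBS 1, 3 and 5 and IL-13 1 and 3, the libraries with high neutrophil transcripts, 6 fell at a median of -2.43, and in that fit 2.04% of all tested genes were lower and 0.857% higher. In bulk tissue, fewer muscle fibres in the sample and less of these RNAs per fibre cannot be told apart.

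Pygm, the glycogen phosphorylase of muscle (chromosome 19 from 6384399 to 6398459, GRCm38, protein-coding), lay at 7.75, 9.16, 7.49, 8.09 and 8.19 log2 CPM in PBS and 4.57, 6.47, 4.34, 5.40 and 4.74 in IL-13. The groups did not overlap, and the closest libraries were IL-13 2, the highest of its group, and PBS 3, the lowest of its own. The log2 fold change was -3.03 ± 0.52 (adjusted p = 0.00169) and -3.04 ± 0.69 (adjusted p = 0.0354) without PBS 1, 2 and 3. Glycolytic enzymes of muscle followed: Eno3, the muscle enolase, fell by 2.63 ± 0.36 and 2.48 ± 0.46 on the log2 scale, Pgam2 by 2.52 ± 0.41 and 2.46 ± 0.52, and Pfkm, the muscle phosphofructokinase, by 1.95 ± 0.31 and 1.83 ± 0.37. Phkg1, the catalytic subunit of phosphorylase kinase that activates Pygm, fell by 2.89 ± 0.45 and 2.64 ± 0.59, and Ampd1, the muscle AMP deaminase, by 2.75 ± 0.49 and 2.78 ± 0.65.

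Contractile, calcium-handling and membrane genes fell to a similar extent. Myl1, a myosin light chain of fast fibres, lay at 8.89, 9.41, 7.81, 8.39 and 8.65 in PBS and 5.2, 7.11, 5.00, 6.16 and 5.13 in IL-13, and fell by 2.91 ± 0.49 (adjusted p = 0.00162) and 2.80 ± 0.66 (adjusted p = 0.0376). IL-13 2 and IL-13 4 were the 2 highest of the IL-13 libraries, as they were for Pygm. Mylpf, the regulatory light chain of fast myosin, fell by 2.78 ± 0.50 and 2.69 ± 0.67, and Mylk2, the kinase of skeletal myosin light chains, by 2.86 ± 0.48 and 2.65 ± 0.63. Sln (sarcolipin, a regulator of the calcium pump) fell by 2.91 ± 0.51 and 2.98 ± 0.65. Dhrs7c, a dehydrogenase of the sarcoplasmic reticulum, had the largest of the 15 falls named as holding without overlap, at -3.39 ± 0.55 and -3.24 ± 0.73. Nos1, the neuronal nitric oxide synthase that muscle fibres carry at the sarcolemma, lay at 2.66, 5.11, 3.41, 3.89 and 3.68 in PBS and 0.19, 2.24, -0.24, 0.98 and 0.57 in IL-13, and fell by 3.00 ± 0.58 (adjusted p = 0.00258) and 3.04 ± 0.74 (adjusted p = 0.0424). The rule also named Alpk2 (an alpha kinase), Apobec2 (a deaminase-family protein of muscle), Xirp1 (an actin-binding repeat protein), Actc1 (cardiac and fetal actin), Kbtbd12 and Lrrc38 (a potassium channel subunit), whose falls were 2.53 to 2.90 with all libraries.

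**Figure D3:**
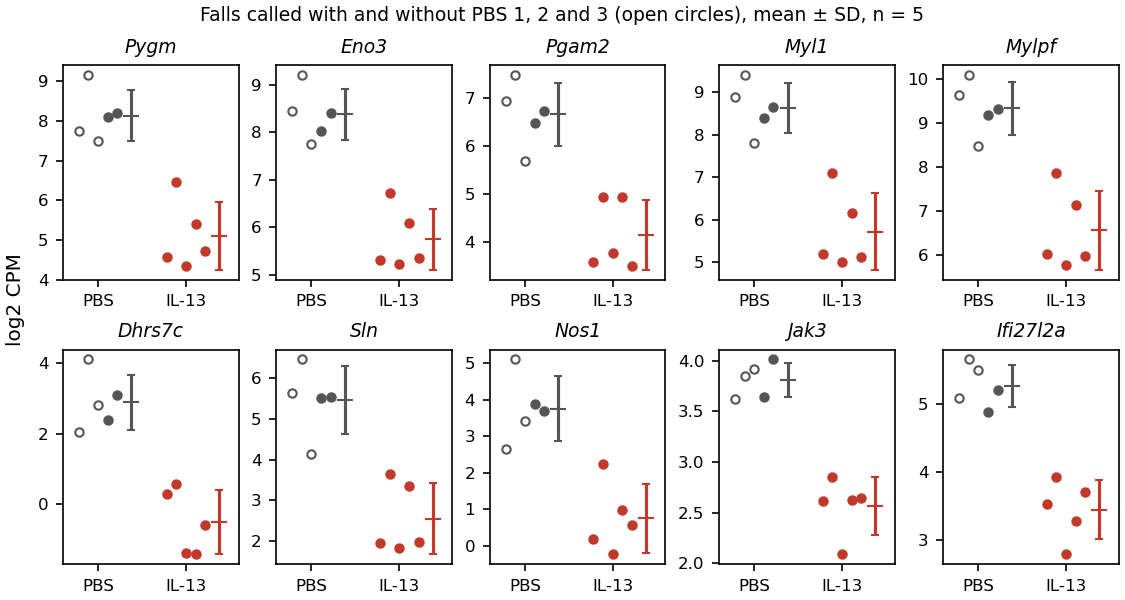
Log2 CPM in each PBS and IL-13 library for 10 falls that held, with mean ± SD (n = 5) beside the points and PBS 1, 2 and 3 as open circles. In all 10 genes the groups do not overlap, as in Pygm with 7.49 to 9.16 in PBS and 4.34 to 6.47 in IL-13, and the open and filled PBS points share 1 range. Several of the 10 were chosen by the rule for that lack of overlap.

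Regulators of muscle and its synapse fell with the contractile genes. Of 25 tested, 19 fell and 1 held (Sgca, a sarcoglycan of the dystrophin complex, at -2.28 ± 0.41 and -2.17 ± 0.54, adjusted p = 0.00193 and 0.0458), with a median of -1.65 and then -1.44. Subunits of the acetylcholine receptor (Chrna1, Chrnb1, Chrnd and Chrne) and its clustering machinery (Musk, Dok7, Rapsn) were among the 19. Colq, the collagen tail that anchors acetylcholinesterase at the synapse, fell by 2.12 ± 0.42 (adjusted p = 0.00289) with all libraries, and without PBS 1, 2 and 3 its value was -1.83 ± 0.56 (adjusted p = 0.0754). Myf6, a myogenic transcription factor, gave -1.90 ± 0.36 and -1.67 ± 0.45, with an adjusted p of 0.0551 in the smaller fit.

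Genes of mitochondrial respiration were lower by less than the muscle genes. Of 13 mitochondrially encoded genes 11 fell and 0 held, with a median of -0.67 and, without PBS 1, 2 and 3, -0.44. mt-Nd4, a complex I subunit, lay at 11.24, 11.69, 11.62, 10.95 and 11.09 in PBS and 10.30, 11.13, 10.37, 10.54 and 10.34 in IL-13, so that IL-13 2 overlapped the PBS range. Its log2 fold change was -0.78 ± 0.17 (adjusted p = 0.00405) and -0.48 ± 0.19 (adjusted p = 0.159). Of 44 respiratory subunits encoded in the nucleus, 28 fell, 3 held and 16 did not pass, with medians of -0.32 and -0.30. Atp5g1, a subunit of the ATP synthase ring, lay at 7.11, 7.20, 6.71, 6.94 and 7.13 in PBS and 6.29, 6.47, 6.48, 6.46 and 6.22 in IL-13, and fell by 0.63 ± 0.10 (adjusted p = 0.00142) and 0.65 ± 0.12 (adjusted p = 0.0281). Sdhb, the iron-sulfur subunit of complex II, fell by 0.54 ± 0.10 and 0.49 ± 0.10, and both genes were without overlap. Cox5b and Cox7b, subunits of complex IV, fell by 0.41 ± 0.08 and 0.62 ± 0.11 with all libraries and were at -0.31 ± 0.08 and -0.41 ± 0.14 in the smaller fit, where neither passed. The fall of the muscle list ran alongside these values, and its part in them was not tested. With only the 10 libraries, 1 of the 13 and 12 of the 44 fell, against 783 of all 16461 tested genes.

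Vascular, connective and fat genes were lower in part. Of 42 genes of blood and lymphatic endothelium 24 fell, 2 held and 18 did not pass, and the median was -0.68 and -0.70. The count of 24 was 10 without IL-13 3 or without IL-13 4, 12 without PBS 2, and 14 with library weights. The 2 that held, chosen after their values were seen, were Nrp1, a co-receptor for VEGF and semaphorins, and Tek, the angiopoietin receptor. Nrp1 lay at 4.45, 4.72, 4.09, 4.64 and 4.77 in PBS and 3.62, 3.70, 3.37, 3.89 and 4.08 in IL-13, with log2 fold changes of -0.80 ± 0.19 and -0.97 ± 0.24. Tek was at -1.0 ± 0.26 and -1.23 ± 0.30. Vegfa, the main endothelial growth factor, lay at 5.48, 5.92, 6.09, 4.85 and 5.87 in PBS and 4.74, 4.85, 4.70, 4.16 and 4.08 in IL-13. It fell by 1.13 ± 0.20 (adjusted p = 0.00193) and was at -0.85 ± 0.25 (adjusted p = 0.0684) without PBS 1, 2 and 3. Eng and Esam, membrane proteins of endothelium, fell by 0.70 ± 0.16 and 0.94 ± 0.21 with all libraries. Without PBS 1, 2 and 3 they were at -0.68 ± 0.22 and -0.705 ± 0.28, without a call.

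Among 13 genes of pericytes and smooth muscle, 5 fell, 1 rose and 3 held, with medians of -0.48 and, without PBS 1, 2 and 3, -0.18. Abcc9 and Kcnj8, which form the ATP-sensitive potassium channel of pericytes, held at -1.76 ± 0.37 and -1.96 ± 0.44 for Abcc9 and -1.17 ± 0.31 and -1.42 ± 0.36 for Kcnj8. The third was Des (desmin), at -2.36 ± 0.42 and -2.21 ± 0.55, an intermediate filament that skeletal muscle also makes and that stands in the muscle list too. Abcc9 is also expressed in striated muscle. Rgs5, a pericyte marker, fell by 0.67 ± 0.18 (adjusted p = 0.0143), lost its call without PBS 2, and was at -0.54 ± 0.23 without PBS 1, 2 and 3. The count of 5 was 3 without PBS 2.

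Of 42 genes of dermal fibroblasts and matrix 6 fell and 2 held, with medians of -0.37 and -0.61, the first of which was -0.22 without PBS 5. Mfap5, a microfibril protein, lay at 3.74, 4.99, 3.66, 4.46 and 4.55 in PBS and 3.42, 3.35, 2.90, 2.95 and 3.42 in IL-13, without overlap, and fell by 1.07 ± 0.23 (adjusted p = 0.00445) and 1.30 ± 0.24 (adjusted p = 0.0265). Col1a1, chosen after its values were seen, was at -0.72 ± 0.25 (adjusted p = 0.0467) and -1.16 ± 0.29 (adjusted p = 0.0470), and lost its call without any 1 of IL-13 2 to 5 or PBS 2, 4 or 5. Sparc, a matrix glycoprotein, fell by 0.71 ± 0.18 and was at -0.83 ± 0.23 in the smaller fit, without a call. Fbln2 (fibulin 2) fell by 0.67 ± 0.20 with all libraries and lost its call without IL-13 3, 4 or 5 or PBS 1, 2 or 5. The count of 6 was 2 without IL-13 3 or IL-13 4, 3 without PBS 2 or PBS 5, and 3 with library weights.

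Of 22 adipocyte genes 8 fell, 1 rose and 1 held, with medians of -1.19 and -0.80. Slc2a4, the insulin-regulated glucose transporter of fat and striated muscle, lay at 5.48, 6.42, 5.43, 5.53 and 5.2 in PBS and 3.54, 4.55, 3.32, 3.85 and 3.74 in IL-13, and fell by 1.81 ± 0.29 (adjusted p = 0.00142) and 1.56 ± 0.38 (adjusted p = 0.0394). Car3, a carbonic anhydrase that fat and slow muscle share, fell by 1.69 ± 0.34 and was at -1.41 ± 0.44 (adjusted p = 0.0802). The 1 rise was Dgat2, an enzyme of triglyceride synthesis that also stands in the epidermal lipid list, at 0.75 ± 0.17 and 0.39 ± 0.17, the second without a call. The count of 8 was 5 without IL-13 3, IL-13 4, PBS 2 or PBS 3, 13 without IL-13 2 and 14 without PBS 1. Of 21 cartilage genes 1 fell (Col10a1, the collagen of hypertrophic cartilage) and 0 rose, and that count was 5 without PBS 5.

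Macrophage, complement and interferon-stimulated genes were the immune groups with the most falls. Among all tested genes 9.80% fell, and 1.62% fell and held. Of 33 monocyte and macrophage genes 12 fell, 1 rose and 5 held, and the median was -0.78 and, without PBS 1, 2 and 3, -1.15. Lyz2, the lysozyme of myeloid cells, lay at 7.24, 8.02, 6.62, 7.76 and 8.67 in PBS and 6.92, 6.48, 6.39, 6.59 and 7.15 in IL-13. PBS 3 lay within the IL-13 range and PBS 5 was the highest of all. Its log2 fold change was -0.96 ± 0.27 (adjusted p = 0.0195) and -1.51 ± 0.27 (adjusted p = 0.0221). Fcgr3, an activating IgG receptor, fell by 0.87 ± 0.22 and 1.22 ± 0.28, and C1qa, a chain of the first complement component made by tissue macrophages, by 0.78 ± 0.25 and 1.10 ± 0.23. The others that held were Lyz1 and C1qc. Tyrobp and Fcer1g, adaptors of myeloid receptors, fell by 1.39 ± 0.36 and 1.08 ± 0.30 with all libraries and did not pass in the smaller fit. Lyz2 and C1qa were chosen after their values were seen. The single rise was Lgals3, a galectin that keratinocytes also make.

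The macrophage count was sensitive to single libraries and to weights. It was 4 without IL-13 4, 5 without IL-13 2, IL-13 3 or PBS 5, 6 without PBS 2, 7 without PBS 1, 4 with library weights, 7 after quantile normalization and 0 with only the 10 libraries. The C1qa call was lost without any 1 of 8 libraries, all but IL-13 5 and PBS 3. The Lyz2 call was lost without IL-13 3 or PBS 2. PBS 5 had the highest mean centred level of the macrophage list, 1.38, against 0.05 to 0.30 in PBS 1 to 4 and -0.89 to 0.29 in IL-13.

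Of 27 complement and coagulation genes 10 fell, 1 rose and 4 held, with medians of -0.68 and -0.94. C1s1, a protease of the classical pathway, was at -0.68 ± 0.22 (adjusted p = 0.0331) and -0.94 ± 0.23 (adjusted p = 0.0455), and Cfb, factor B of the alternative pathway, at -0.99 ± 0.34 (adjusted p = 0.0467) and -1.63 ± 0.36 (adjusted p = 0.0321). C4b fell by 0.76 ± 0.20, and Cfp (properdin) and Cfd (factor D, a product of fat) by 0.69 ± 0.20 and 1.85 ± 0.57, and these 3 did not pass without PBS 1, 2 and 3. The C1s1 call was lost without IL-13 2, 3 or 4 or PBS 2, 4 or 5. That of Cfb was lost without IL-13 2, 3, 4 or 5 or PBS 2, 4 or 5, that of Cfd without IL-13 3 or 4 or PBS 2 or 3, and that of Cfp without IL-13 3. The count of 10 was 1 without IL-13 3, 2 without IL-13 4 or PBS 2, 3 without PBS 5, 4 without IL-13 2, 6 without PBS 4, 4 with library weights and 1 with only the 10 libraries. Cfb was chosen after its values were seen.

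The medians of 44 interferon-stimulated genes were -1.24 and -1.26. Of the 44, 13 fell and 1 held, against 9.80% that fell and 1.62% that fell and held among all tested genes. The 1 was Ifi27l2a, a small interferon-inducible protein, which lay at 5.10, 5.67, 5.51, 4.89 and 5.21 in PBS and 3.54, 3.93, 2.79, 3.28 and 3.70 in IL-13. Its groups did not overlap, and it fell by 1.82 ± 0.24 (adjusted p = 0.000938) and 1.6 ± 0.33 (adjusted p = 0.0290). Gbp2, a guanylate-binding protein, lay at 3.28, 2.89, 4.14, 2.73 and 4.38 in PBS and 3.27, 1.80, 2.16, 1.13 and 1.94 in IL-13, so IL-13 1 overlapped PBS. It fell by 1.42 ± 0.40 (adjusted p = 0.0166), was at -1.50 ± 0.53 (adjusted p = 0.124) in the smaller fit, and lost its call without IL-13 4. Dhx58, a regulator of RNA sensing, fell by 1.53 ± 0.46 and lost its call without IL-13 4 or 5 or PBS 3 or 5. Psmb8, an immunoproteasome subunit, fell by 0.60 ± 0.17 and was at -0.62 ± 0.23 without a call in the smaller fit.

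The interferon count of 13 ranged from 2 to 21 when 1 library was left out. It was 2 without IL-13 4, 3 without PBS 3, 4 without IL-13 5 or PBS 5, 5 without PBS 1, 6 without IL-13 2, 8 without IL-13 3, 20 without IL-13 1 and 21 without PBS 4. It was 2 with library weights, and 3 after quantile normalization and with only the 10 libraries. Neutrophil transcripts moved with these genes between libraries. The mean centred level of 27 neutrophil genes was 1.71, 2.82 and 2.61 in PBS 1, 3 and 5 and 2.24 and 0.23 in IL-13 1 and 3, against -2.29 to -1.50 in the other 5 libraries. Interferon-stimulated genes were highest in PBS 5, 3 and 1, at 1.68, 1.26 and 0.81, and reached 0.62 in IL-13 1. Without those 5 neutrophil-rich libraries the interferon median was -0.80 and 1 gene fell, and the macrophage median was -0.77 with 3 falls. In the neutrophil list itself 0 genes fell and 1 rose, Asprv1, which is also a protease of the cornified layer, at a median of -2.0 and -1.32, and 2 fell without IL-13 1. The part of neutrophil content in the other immune values was not tested beyond this.

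**Figure D4:**
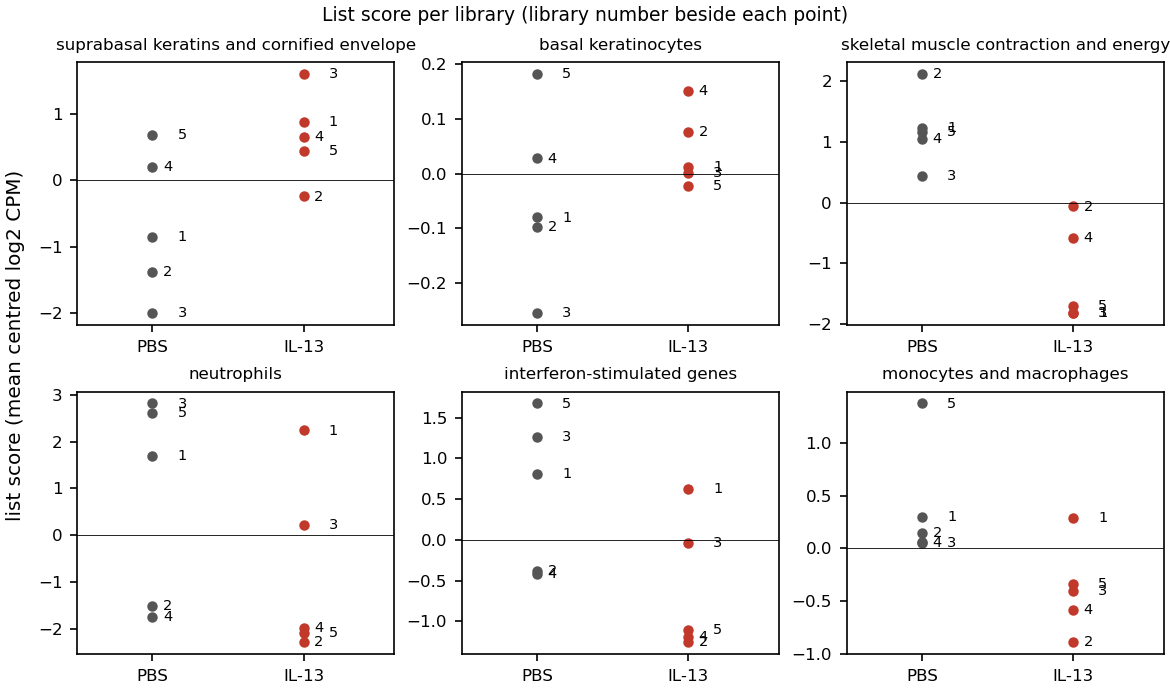
Mean centred log2 level of 6 gene lists in each PBS and IL-13 library, with the library's number beside its point and a scale of its own for each list. Muscle genes are lower in all IL-13 libraries than in all PBS libraries, cornified-envelope genes are lowest in PBS 1, 2 and 3 (-0.85, -1.38 and -2.0), and the neutrophil list is high in PBS 1, 3 and 5 and IL-13 1.

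Other immune cell lists, which differ in length, gave fewer calls. Among all tested genes 9.94% rose and 9.80% fell. Of 28 dendritic and Langerhans cell genes 7 fell, among them Irf8, which dendritic cells need to develop (-0.97 ± 0.22), and Cd40, a costimulatory receptor (-1.22 ± 0.30), and 1 rose, Epcam, an adhesion protein of Langerhans cells and some epithelia. None of these held. That count was 3 without IL-13 2, IL-13 3 or PBS 2 and 4 without IL-13 4. Of 15 mast cell and basophil genes 1 fell: Il1rl1, the IL-33 receptor, lay at 4.05, 2.68, 2.49, 2.21 and 4.85 in PBS and 2.26, 1.74, 2.45, 1.61 and 1.63 in IL-13. The Il1rl1 fall of 1.32 ± 0.40 (adjusted p = 0.0270) lost its call without IL-13 4, IL-13 5 or PBS 1, and PBS 1 and 5 were the 2 libraries far above the others. Without PBS 1, 2 and 3 Il1rl1 was at -1.59 ± 0.51 (adjusted p = 0.0897). That list's count was 0 without IL-13 4 or 5, 3 without PBS 1 or 3 and 4 without PBS 5. Only 2 of 12 listed eosinophil genes were among those tested, and neither passed. T and innate lymphoid genes gave 3 rises and 1 fall of 28, against 9.94% and 9.80% of all tested genes, and the rise that held was Gata3. The 3 rises were 1 without IL-13 3, IL-13 5 or PBS 2, and the fall, of the leukocyte phosphatase Ptprc, was lost without IL-13 2, IL-13 3 or PBS 3.

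Keratinocyte differentiation genes rose with all libraries and did not hold. Of 49 suprabasal keratin and cornified-envelope genes 36 rose and 0 held, and the median went from 1.43 to 0.31 without PBS 1, 2 and 3. Those were the PBS libraries lowest in these same genes, so a smaller median without them was built in. Lor (loricrin, the most abundant cornified-envelope protein) lay at 9.49, 9.77 and 8.67 in PBS 1, 2 and 3, at 12.96 and 12.43 in PBS 4 and 5, and at 13.05, 12.68, 13.31, 13.25 and 13.36 in IL-13. PBS 4 was above IL-13 2, and PBS 1, 2 and 3 were far below all other libraries. Its log2 fold change was 2.47 ± 0.57 (adjusted p = 0.00598) and 0.44 ± 0.23 (adjusted p = 0.316). Hrnr (hornerin) rose by 1.91 ± 0.63 (adjusted p = 0.0371) and stood at -0.13 ± 0.38 (adjusted p = 0.893) without PBS 1, 2 and 3, the single sign change among called genes given values here. Hrnr also lost its call without any 1 of 7 libraries (IL-13 1, 3, 4 or 5, or PBS 1, 2 or 3).

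Krt80 and Calml3, a keratin and a calmodulin-like protein of differentiating keratinocytes, rose by 1.06 ± 0.22 and 1.04 ± 0.23, and were at 0.39 ± 0.18 and 0.43 ± 0.16 in the smaller fit. In the fit of only the 10 libraries 3 of the 49 genes rose, against 351 of all 16461 tested genes. Basal keratinocyte genes differed from this: 0 of 18 passed, at medians of 0.13 and -0.01 (the first was 0.08 without PBS 2 and 0.06 without PBS 3), and the count was 3 rises without PBS 5 and 1 without PBS 4.

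Junction, protease and lipid genes of the epidermis also lost calls and size without PBS 1, 2 and 3. Of 41 genes of desmosomes and other junctions 28 rose and 0 held, with medians of 0.73 and 0.25. Cdh1 (E-cadherin) rose by 0.75 ± 0.16 and was at 0.33 ± 0.14, and Tjp3, a tight junction scaffold, rose by 0.79 ± 0.14 and was at 0.59 ± 0.18. Dsc1 (desmocollin 1), which lay at 4.72, 3.40 and 3.83 in PBS 1, 2 and 3 and at 6.87 and 7.67 in PBS 4 and 5, went from 2.22 ± 0.62 (adjusted p = 0.0173) to 0.25 ± 0.47 (adjusted p = 0.826). The Dsc1 call was also lost without IL-13 3, PBS 2 or PBS 3 alone. Nectin4, an adhesion receptor, rose by 1.06 ± 0.23 and was at 0.40 ± 0.21.

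Of 21 epidermal proteases and inhibitors 9 rose and 0 held, with medians of 0.80 and 0.22. With 1 library left out the first median was 0.38 without IL-13 3 and 1.25 without PBS 5. Prss8, a membrane protease that activates the barrier cascade, rose by 0.91 ± 0.22, F2rl1, the protease-activated receptor PAR2, by 0.73 ± 0.17, Cst6 (cystatin M/E) by 1.14 ± 0.29 and Serpinb12 by 2.00 ± 0.51. Their values without PBS 1, 2 and 3 were 0.39, 0.30, 0.22 and 0.26. Serpinb3a went from 2.27 ± 0.78 (adjusted p = 0.0461) to 0.20 ± 0.75, and its call was lost without any 1 of IL-13 1, 3, 4 or 5 or PBS 1, 2 or 3. The protease count was 14 without IL-13 2.

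In the epidermal lipid barrier list 28 of 36 rose and 2 held, with medians of 0.71 and 0.24. The 2 were Elovl4, which elongates the very long fatty acids of skin ceramides, and Acer1, an epidermal ceramidase chosen after its values were seen. Elovl4 lay at 8.60, 7.99, 9.34, 8.78 and 8.93 in PBS and 9.49, 9.35, 9.72, 9.12 and 9.50 in IL-13, and rose by 0.70 ± 0.17 (adjusted p = 0.00843) and 0.58 ± 0.13 (adjusted p = 0.0375). Acer1 lay at 7.45, 6.70, 7.86, 7.45 and 7.14 in PBS and 7.81, 7.79, 7.98, 7.87 and 7.98 in IL-13, and rose by 0.57 ± 0.15 and 0.59 ± 0.12. In both genes PBS 3 alone overlapped the IL-13 libraries. Sptlc3 and Cyp4f39, enzymes of sphingoid base synthesis and of fatty acid omega-hydroxylation, rose by 1.01 ± 0.21 and 0.76 ± 0.17, and were at 0.59 ± 0.23 and 0.55 ± 0.17 without a call in the smaller fit. Lipn, a lipase of the granular layer, went from 2.23 ± 0.63 (adjusted p = 0.0187) to 0.25 ± 0.36, and lost its call without PBS 2 alone. The count of 28 was 12 without PBS 2, 13 without IL-13 3, 16 without PBS 3 and 3 with only the 10 libraries.

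Cholesterol synthesis genes were called in both fits, but no gene in both. Of 26 genes 8 rose (Mvk, Fdps, Sqle, Sc5d, Dhcr7, Srebf2, Scap and Stard4) and 0 held. The median was 0.35 with all libraries and 0.43 without PBS 1, 2 and 3, where 4 other members passed (Lss, Hmgcs1, Acat2 and Cyp51). The count of 8 was 21 without PBS 3, at a median of 0.54, and 11 without the 5 neutrophil-rich libraries, at a median of 0.62.

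Of 34 epidermal transcription factors 14 rose, 0 fell and 1 held, with medians of 0.38 and 0.25. Cebpa, Ovol1 and Grhl1, which promote terminal differentiation, rose by 0.94 ± 0.17, 1.01 ± 0.23 and 0.79 ± 0.18 and were at 0.55, 0.47 and 0.35 without a call in the smaller fit. Rxra, the partner of the retinoic acid and vitamin D receptors, rose by 0.56 ± 0.11 and was at 0.30 ± 0.11. The count of 14 was 9 without IL-13 3 or PBS 2, and 2 with only the 10 libraries. Of 26 genes of stressed or wounded keratinocytes 2 rose (Defb1 and Ereg), with medians of -0.24 and -0.65. The sign of this median turned on single libraries: it was 0.41 without PBS 5, 0.33 without IL-13 2, 0.19 without IL-13 5, 0.08 without PBS 1 and 0.06 without IL-13 4, and -0.36 to -0.97 without IL-13 1, IL-13 3, PBS 2, PBS 3 or PBS 4. The count of 2 was 1 without IL-13 3, PBS 2 or PBS 3 and 4 without PBS 5. Of 40 cell cycle and mitosis genes 0 passed, at a median of 0.27 (0.15 without IL-13 1, 0.17 without PBS 2 and 0.46 without PBS 5), but 17 rose without PBS 5, 7 without IL-13 2, 6 with library weights and 4 after quantile normalization.

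**Figure D5:**
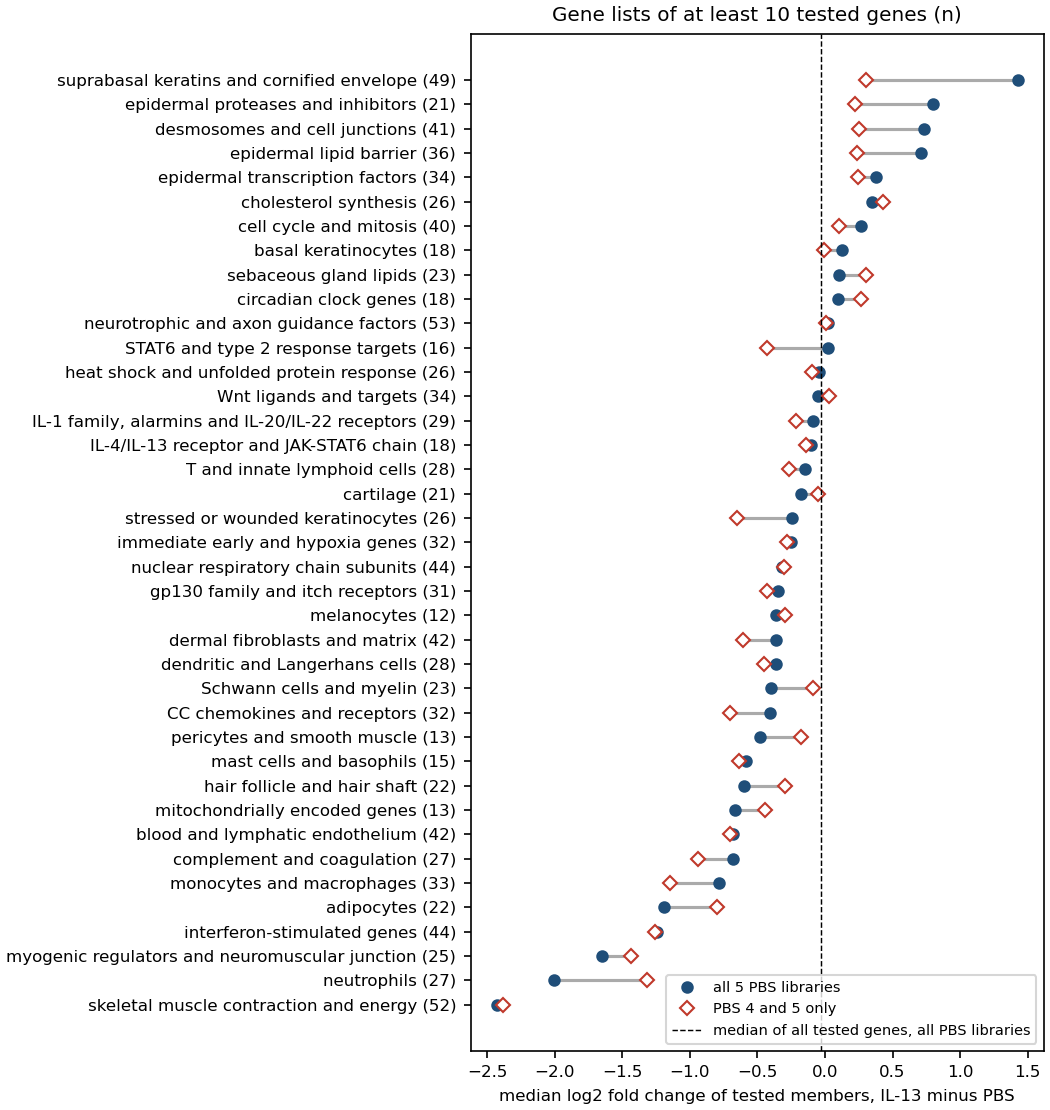
Median log2 fold change, IL-13 minus PBS, of the tested members of each gene list with at least 10 of them (number in brackets), with all 5 PBS libraries (filled) and with PBS 4 and 5 only (open). The cornified-envelope median moves from 1.43 to 0.31, whereas the muscle median stays at -2.43 and -2.39.

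The list of IL-4 and IL-13 receptor and signalling genes gave 1 call, and it was not in Il4ra or Il13ra1, the receptor pair that IL-13 uses. Of 18 genes of the IL-4 and IL-13 receptors, Janus kinases, STAT6 and their inhibitors, 1 fell, 0 rose and 17 did not pass. Jak3, the kinase bound to the common gamma chain Il2rg, lay at 3.62, 3.85, 3.92, 3.65 and 4.02 in PBS and 2.62, 2.85, 2.09, 2.63 and 2.65 in IL-13. The groups were well apart, PBS 1 and IL-13 2 being the closest, and Jak3 fell by 1.24 ± 0.16 (adjusted p = 0.000851) and 1.26 ± 0.22 (adjusted p = 0.0221). The log2 fold changes of the other 17 ran from -0.70 to 0.50, and from -1.07 to 0.46 without PBS 1, 2 and 3. Il2rg had the lowest adjusted p of these with all libraries, 0.0615, at -0.70 ± 0.26, and was at -1.07 ± 0.34 (adjusted p = 0.0837) in the smaller fit. The counts were 2 rises without PBS 5 or with library weights, and 2 falls without IL-13 1, PBS 3 or PBS 4.

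Il4ra lay at 5.25, 4.13, 4.79, 4.47 and 6.86 in PBS and 5.29, 4.19, 5.71, 4.57 and 4.53 in IL-13, and PBS 5 was far above every other library of both groups. The Il4ra difference was -0.24 ± 0.38 (adjusted p = 0.689), and -0.81 ± 0.47 (adjusted p = 0.371) without PBS 1, 2 and 3. Il13ra1 differed by 0.50 ± 0.25 with all libraries and by -0.19 ± 0.23 without PBS 1, 2 and 3, and Il13ra2, near 1 CPM in most libraries, by -0.16 ± 0.33 and 0.46 ± 0.40. Stat6 differed by 0.18 ± 0.08 and, in the smaller fit, 0.06 ± 0.10, and Jak2 by -0.21 ± 0.10 and -0.26 ± 0.13. Other members changed sign between the fits: Jak1 went from 0.28 ± 0.14 to -0.08 ± 0.13, Tyk2 from -0.13 ± 0.11 to 0.12 ± 0.11, and Irs2, an adaptor of the receptor, from 0.02 ± 0.14 to -0.07 ± 0.15. Of the feedback inhibitors, Socs1 went from 0.17 ± 0.24 to -0.09 ± 0.29, Cish from 0.09 ± 0.17 to -0.19 ± 0.20 and Socs3 from -0.67 ± 0.37 to -0.75 ± 0.48. None of these 11 genes passed in either fit.

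Of 16 tested targets of STAT6 and type 2 responses, 3 rose, 3 fell and 1 held. Among all tested genes 9.94% rose and 9.80% fell. The list's median was 0.02 with all libraries and -0.43 without PBS 1, 2 and 3. The first ran from -0.22 to 0.21 with 1 library left out. Gata3, which directs type 2 lymphocytes and is also a differentiation factor of epidermis and hair follicle, lay at 8.04, 7.37, 7.68, 7.47 and 7.25 in PBS and 7.86, 7.83, 8.0, 7.92 and 8.01 in IL-13. PBS 1 was above all IL-13 libraries. Gata3 rose by 0.36 ± 0.11 (adjusted p = 0.0226) and 0.57 ± 0.08 (adjusted p = 0.0107), and its call was lost without IL-13 3, IL-13 5 or PBS 2. Clca1, a secreted protein of mucus-making epithelia induced by IL-13, lay at 0.93, 1.41, 0.55, 1.38 and 1.49 in PBS and 1.89, 1.83, 2.92, 3.36 and 2.43 in IL-13. Clca1 did not overlap, rose by 1.33 ± 0.28 (adjusted p = 0.00342) and was at 1.05 ± 0.35 (adjusted p = 0.105) in the smaller fit. Retnla, a product of alternatively activated macrophages chosen after its values were seen, reached 5.24 in IL-13 4 and lay at -0.24 to 1.79 in the other IL-13 libraries and -2.05 to 1.09 in PBS, and its rise was 2.56 ± 0.86 (adjusted p = 0.0412). Without IL-13 4 the Retnla difference was 1.69 and its call was lost, as it was without IL-13 5 or PBS 1, 3 or 5. Tgm2 (transglutaminase 2) fell by 1.46 ± 0.39, and Vcam1 and Clec10a fell with it. The count of rises was 1 without IL-13 5, and that of falls 1 without IL-13 3 or PBS 2.

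In the list of IL-1 family members, alarmins and receptors of IL-20 and IL-22, 5 of 29 rose and 2 fell, and 1 of each held. The rise was Il20rb and the fall Gsdmd, the pore-forming protein of pyroptosis, which lay at 3.66, 3.73, 3.51, 3.56 and 3.84 in PBS and 3.02, 2.40, 2.11, 2.58 and 2.28 in IL-13. Gsdmd did not overlap and fell by 1.18 ± 0.17 (adjusted p = 0.00114) and 1.22 ± 0.24 (adjusted p = 0.0283). Il22ra2, a soluble decoy receptor of IL-22, rose by 0.76 ± 0.14 and was at 0.43 ± 0.14 in the smaller fit. The count of 5 was 3 without PBS 2, 8 without IL-13 2 and 9 without PBS 5.

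Counts for nerve, itch and hair genes are set beside those of all tested genes. Among the latter 9.94% rose, 9.80% fell, 0.292% rose and held, and 1.62% fell and held. Of 53 neurotrophic and axon guidance genes 11 rose, 4 fell, and 1 of each held: Sema3f, a repellent semaphorin, and Nrp1, which binds class 3 semaphorins. Efna3 and Epha1, an ephrin and an ephrin receptor, rose by 1.05 ± 0.18 and 0.89 ± 0.19 and were at 0.57 ± 0.18 and 0.34 ± 0.16. The count of 11 was 7 without IL-13 4, and that of 4 was 7 without PBS 5. Among 9 tested axonal transcripts of sensory neurons Uchl1 and Gap43 fell, by 1.51 ± 0.36 and 0.85 ± 0.24, and neither passed without PBS 1, 2 and 3 (-1.22 ± 0.48 and -1.06 ± 0.31). Of 23 Schwann cell genes Ngfr (the p75 neurotrophin receptor) and Erbb3 (a neuregulin receptor), both of which keratinocytes also express, rose by 0.70 ± 0.17 and 0.42 ± 0.09. Ncam1, an adhesion molecule of nerve and muscle, fell by 1.16 ± 0.26, together with Scn7a and Cnp, and 0 of these held. The count of 3 Schwann falls was 1 without IL-13 3, IL-13 4 or PBS 2 and 6 without PBS 5.

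Of 31 genes of the gp130 cytokine family and itch receptors 3 rose, 5 fell and 0 held. Among all tested genes 9.94% rose and 9.80% fell. Tacr1, the substance P receptor, fell by 0.92 ± 0.24, Npr1, a natriuretic peptide receptor, by 0.62 ± 0.17 and Lpar1, a lysophosphatidic acid receptor, by 0.64 ± 0.16, and in the smaller fit they were at -0.74, -0.64 and -0.72. The count of 5 was 3 without IL-13 3 or PBS 2.

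Among 22 hair follicle genes 4 rose, 7 fell and 1 held, against 9.94% that rose and 9.80% that fell among all tested genes. Krt79, a keratin of the upper follicle and sebaceous duct, chosen after its values were seen, lay at 8.29, 7.62, 9.18, 8.14 and 7.90 in PBS and 8.82, 8.87, 8.75, 8.57 and 8.78 in IL-13. PBS 3 was above every IL-13 library, and Krt79 rose by 0.53 ± 0.19 (adjusted p = 0.0476) and 0.74 ± 0.11 (adjusted p = 0.0107), with its call lost without any 1 library except PBS 3. Lef1, a Wnt effector of the hair matrix, fell by 1.20 ± 0.25 and was at -0.78 ± 0.32, and Foxn1 and Dlx3, factors of hair and epidermal differentiation, rose by 0.69 ± 0.16 and 0.83 ± 0.19 and were at 0.55 ± 0.21 and 0.30 ± 0.17. Krt35, a hair shaft keratin, lay at 0.85, 4.50, 3.08, -2.04 and 4.82 in PBS and -2.68 to -0.89 in IL-13, and its value went from -4.37 ± 0.96 (adjusted p = 0.00486) to -3.52 ± 1.24 (adjusted p = 0.120). The count of 7 falls was 3 without PBS 2 and 4 without IL-13 1 or PBS 3. The other falls whose values moved most towards 0, Lilra6, Lrrc51, Mamdc4 and Mmp11, went from -1.42, -1.26, -1.15 and -0.88 to -0.72, -0.50, -0.24 and -0.18. Each lost its call without IL-13 3, PBS 1, PBS 2 or PBS 3. So did Lilra6 without IL-13 4 or 5, Mamdc4 without IL-13 1 or 4, and Mmp11 without IL-13 1, 4 or 5 or PBS 4.

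The remaining lists gave the following. Over all tested genes 9.94% rose, 9.80% fell, 0.292% rose and held, and 1.62% fell and held. Of 34 genes of Wnt ligands and targets 6 rose, 2 fell and Wnt7b held. Of 23 genes of sebaceous lipids 2 rose, 1 fell and Hsd17b2 held, and that count of rises was 0 without any 1 of IL-13 1, 3, 4 or 5, 1 without PBS 1 or PBS 2, and 5 without PBS 3. Of 26 heat shock and unfolded protein response genes 5 rose and 2 fell, of 32 immediate early and hypoxia genes 3 rose and 3 fell, and of 18 circadian clock genes 3 rose (Arntl, Cry1 and Hlf), and 0 of these held. Of 32 CC chemokine and receptor genes 2 rose (Ccr4 and Cx3cl1), 2 fell (Ccl21a and Cxcl12) and 0 held. Mitf fell among 12 melanocyte genes, Ighm was the 1 tested gene of B and plasma cells and fell, and 0 of 7 genes of red blood cells and platelets passed. These small counts moved with single libraries. Chemokine rises were 0 without IL-13 4, PBS 2 or PBS 3, and 1 without IL-13 1, 3 or 5 or PBS 1. Chemokine falls were 0 without IL-13 3, 1 without PBS 2, and 4 without IL-13 1 or PBS 4. Heat shock falls were 0 without IL-13 1 or 3 and 1 without IL-13 4, PBS 1 or PBS 2, and immediate early falls were 7 without IL-13 1 and 5 without PBS 4. Wnt falls were 4 without IL-13 2 or PBS 5 and 1 without IL-13 3, IL-13 5 or PBS 2. The Mitf call was lost without IL-13 1, IL-13 3 or PBS 2, and that of Ighm without IL-13 3, 4 or 5 or PBS 1, 2, 3 or 4. In red blood cells 1 gene fell without PBS 3.

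IL-13 was then compared directly with the other cytokine groups. IL-13 and IL-4, which share the receptor pair of Il4ra and Il13ra1, gave 0 calls of 16461 (0.0%) with limma, with 664 genes at an unadjusted p under 0.05 and a lowest adjusted p of 0.997. IL-13 and IL-31, an itch cytokine with its own receptor, gave 0 calls (0.0%), with 1200 genes at an unadjusted p under 0.05 and a lowest adjusted p of 0.215. The 15 rises of the rule differed between IL-13 and IL-4 by -0.11 to 0.28 on the log2 scale (SE 0.08 to 0.19), and between IL-13 and IL-31 by 0.05 to 0.29. The 15 falls of the rule differed from IL-4 by -1.21 to 0.23 and from IL-31 by -2.21 to -1.35 (SE 0.45 to 0.58 in both). Both sets were chosen for large changes in IL-13, which favours more extreme values in IL-13 than in another group, so these ranges are a description. A single library decided the second comparison: without IL-31 3, 297 genes passed, 294 of them lower in IL-13, and 36 of these 294 were among the 52 muscle genes. A difference that misses the threshold does not show that the cytokines acted alike.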

How the data were processed

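Bulk RNA-seq of mouse ear pinnae was deposited by the authors as 1 table of log2 CPM values for 16669 genes in 20 libraries. RNA came from a Qiagen RNeasy kit and libraries from a NEBNext Ultra II kit, per the labels' protocols. The submitters' processing notes name edgeR (no version) and GRCm38. Aligner and counter: not given in the sources used here. The lowest value, -2.68, corresponds to 0.156 CPM added before the log, which shrinks differences of low genes. Low values were whole reads within 0.02 for 79.2 to 85.0% per library, so no count test was run, and the step gave effective library sizes.

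Genes at log2 CPM of at least 0 in at least 5 of 20 libraries were tested (16461; 208 removed). One limma model of the 4 groups (R 4.3.3, limma 3.58.1, eBayes with trend) was fitted to all 20 libraries, and again without PBS 1, 2 and 3, with two-sided Benjamini-Hochberg adjusted p over all tested genes and a threshold of 0.05. The test was tried on simulated data. Symbols and coordinates came from GENCODE M21 (16652 matched). Gene lists (43) were described by counts and medians, without a set test, and a list's level averages its members' log2 CPM after each gene's own mean is subtracted. The members and lists were chosen with earlier results of these data known. A rule named genes: the 15 largest rises and falls that held without overlap, the 5 of each that moved most towards 0, up to 4 of smallest adjusted p per list, the receptor chain, and any called against IL-4 or IL-31 (0). It gave 210 genes, and values are given for those that describe a group, with others marked as chosen after their values were seen. Il4, Il13 and Il31 were not analysed here. Alternatives were other filters, a pseudocount of 1 CPM, quantile normalization, library weights, no trend, a replicate block, fits of only the 10 libraries and leaving out libraries.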

Additional observations from a re-analysis of the deposited data

Results flagged for a closer look

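In 14 of 274 groups of 5 libraries checked, 1 library lay far from the other 4. Chance alone gives about 1 in 20. All values are log2 CPM. PBS 2 was high for Mylk2 (6.73), Phkg1 (5.88) and Slc2a4 (6.42), genes of muscle fibres, with the other PBS libraries at 5.18 to 5.58, 4.28 to 4.47 and 5.2 to 5.53. PBS 3 was low for C1qa (4.51) and Lpar1 (4.64), PBS 1 was low for Irs2 (3.71), and PBS 5 was high for the IgG receptor Fcgr3 (5.49).

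IL-13 2 was low for the epidermal lipid enzymes Dgat2 (8.13) and Lipn (2.61), and high for Il22ra2 (4.11) and mt-Nd4 (11.13). IL-13 3 was low for Kcnj8 (0.95) and Sparc (9.88). IL-13 1 was high for Tgm2 (6.06), against 4.04 to 4.42 in the other 4, and it was also the IL-13 library with the highest neutrophil level (2.24).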

How the results depend on the processing

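The 3250 genes changed in IL-13 against PBS became 385 without PBS 1, 2 and 3, 476 without PBS 1, 3 and 5 and IL-13 1 and 3, 1134 with only the 10 libraries, and 6 with only the 7 libraries left without PBS 1, 2 and 3, an alternative chosen after seeing the data. Leaving out 1 library gave 1995 (PBS 2) to 4703 (PBS 5), with 2022 without IL-13 3. Other filters, the pseudocount, quantile normalization, no trend and library weights gave 3021 to 3570. The 315 genes that held became 485 with a pseudocount of 1 CPM, 34 without the trend, 0 with library weights, 3 with only the 10 libraries, and 0 to 637 on leaving out 1 library. The cause was not tested. Hrnr turned to -0.133 without PBS 1, 2 and 3 and in the fit of 7 libraries.

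Deviations of same-numbered IL-13 and PBS libraries correlated at -0.172 to 0.486, and 1 of 5 IL-13 libraries correlated best with its own number. Replicate 2 gave the highest value. It also correlated at 0.402 between IL-13 and IL-31 and 0.452 between IL-31 and PBS, but at 0.029 to 0.078 with IL-4. Pairing by replicate number was thus neither shown nor excluded. With the replicate number as a block 3252 genes changed, 3063 of them shared, and 125 held in place of 315. IL-13 against IL-4 gave 0 calls under every alternative run, with the block too. IL-13 against IL-31 gave 0 except 297 without IL-31 3, so leaving out 1 library gave 0 to 297. Of 137 genes given values, 125 were called, and of these 57 kept their call without PBS 1, 2 and 3 and 68 lost it, Hrnr with a change of sign. Of the 12 not called, 7 changed sign.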
